A study of Mus musculus with 2 samples.

Results

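The uroplakin genes Upk1a, Upk1b, Upk2, Upk3a and Upk3b were described in fetal mouse ureters in which the Notch effector gene Rbpj was targeted in the mesenchyme. The genes were chosen by name, as every non-control spot whose gene name is one of the 5. They are 5 of 31870 gene names on the array, measured by 5 probes and 14 spots. Ureters were dissected from NMRI embryos at E18.5 and their total RNA was hybridised to 2-colour Agilent arrays, in which 2 RNAs compete on 1 slide. Rbpj-cKO embryos had the genotype Tbx18(cre/+);Rbpj(fl/fl), in which cre is expressed from the Tbx18 locus and acts on floxed Rbpj alleles. Control embryos had the genotype Rbpj(fl/?), so the state of their second Rbpj allele is not given, and no cre is listed for them. The 2 arrays each set Rbpj-cKO RNA against control RNA of the same sex. Rbpj-cKO RNA was labelled red on the male array and green on the female array, so sex, dye orientation and array cannot be told apart. How many embryos stand behind each RNA is not stated in the labels. A value "in the male pair" or "in the female pair" below is from the array with that pair of RNAs.

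Uroplakins are the membrane proteins that form the crystalline plaques on the luminal face of the urothelium, the epithelium of ureter and bladder. The tetraspanins encoded by Upk1a and Upk1b each pair with a partner that spans the membrane once: uroplakin 1A with uroplakin 2, and uroplakin 1B with uroplakin 3A or 3B. The pairs form before the proteins leave the endoplasmic reticulum, and the plaques make the surface of the superficial cells impermeable. Tbx18 marks the mesenchyme around the ureteric epithelium and not the epithelium itself, so the cells that make uroplakins lie next to the layer in which this cre acts. Upk3b is in addition a marker of mesothelium, the lining of the body cavity. Both Upk3b and Upk1b were left out of the list of mesothelial markers used below.

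The probes are 60 bases long, and their positions are those in the files, on the mouse build mm9. The Upk1a probe lies at chr7:31388111-31388170 (minus strand), the Upk1b probe at chr16:38773859-38773918 (minus strand), the Upk2 probe at chr9:44260822-44260881 (minus strand) and the Upk3b probe at chr5:136520522-136520581 (plus strand). The Upk3a probe spans 902 bases of genome at chr15:84851819-84852720 (plus strand) and therefore crosses an intron. The last 30 bases of 4 probes and the whole Upk3a probe are shown because every value below rests on them, and capitals mark the polyadenylation signal AATAAA where a probe holds it:
Upk1a: gttggctggacacccAATAAAtactggctg
Upk1b: gacgactctcattcctgtctatgtttaatg
Upk2: ctcttaactgtacttaattctcacAATAAA
Upk3a: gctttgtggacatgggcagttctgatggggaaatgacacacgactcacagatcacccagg
Upk3b: tggctattaatgacagtcggctacctagcc
The Upk1a and Upk2 probes each hold 1 such signal, at 9 and at 0 bases from the probe's 3′ end. The probes of Upk1b, Upk3a and Upk3b hold none. Which exon or untranslated region each probe lies in was not analysed here.

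The share of probe spots well above background lay between 66.8% and 71.1% over the 4 channels, and 0 spots were saturated. Precision is limited by there being 2 arrays. The targeted gene Rbpj was at -1.58 in the male pair and -0.93 in the female pair with its brighter probe, with an adjusted p of 0.0760 by limma. Its other probe gave -0.42 and -1.12. Whether either probe lies in the deleted part was not analysed here. Tbx18 had -0.11 and 0.47. Over all 20989 features the ratios of the 2 arrays, each turned to Rbpj-cKO over control, had a Pearson correlation of -0.18 as a description, and 27 features (0.129%) passed the limma test at an adjusted p under 0.05, with 9 of them higher (0.0429%) and 18 lower (0.0858%) in Rbpj-cKO RNA. Every ratio is on the log2 scale with Rbpj-cKO on top, so a positive one means a higher value in Rbpj-cKO RNA. Levels are log2 intensities after normalisation, which can be compared between channels for 1 probe and not between probes.

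With loess, all 5 uroplakin transcripts had higher values in Rbpj-cKO than in control RNA on both arrays, by small amounts, and none passed the test. This held for 4 of the 5 with Agilent's processed signals or the series table, and for 0 of the 5 with median centring. The mean log2 ratio lay between 0.18 for Upk1b and 0.35 for Upk1a, which is 1.14-fold to 1.28-fold. Their median was 0.22, with 0.27 in the male pair and 0.23 in the female pair, against 0.01 over all features tested. Among all features, 21.7% lay above 0 on both arrays, 19.7% lay below 0 on both, and 58.6% went opposite ways. No uroplakin gene was at least 1.5-fold higher on both arrays, as 0.205% of all features were. In bulk tissue, a different share of urothelial cells and a different amount of RNA per cell cannot be told apart.

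**Figure D1:**
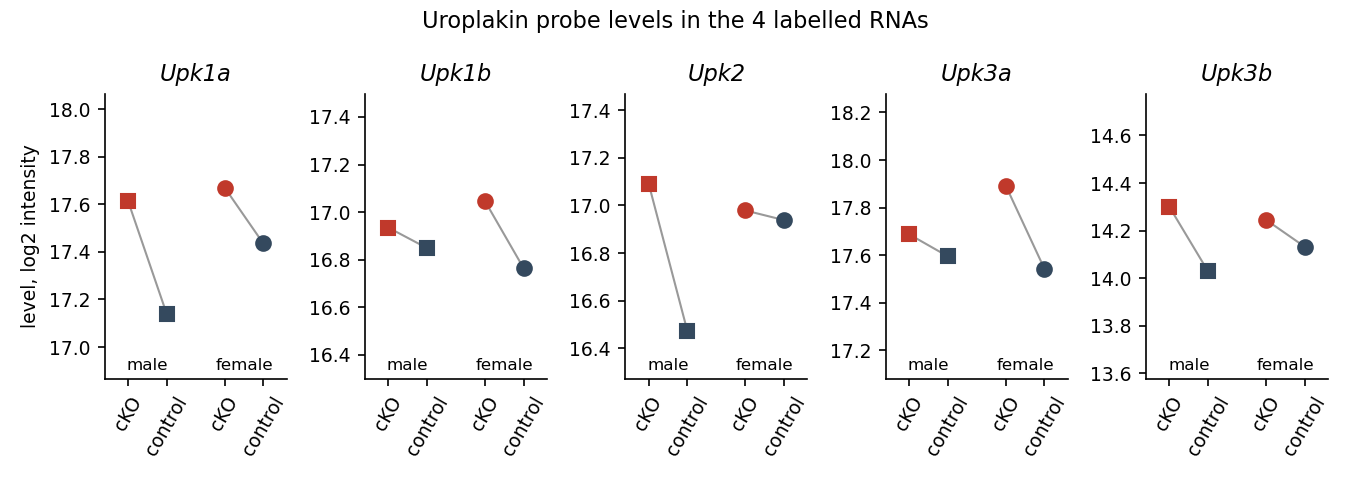
Level of each uroplakin probe (vertical axis, log2 intensity after normalisation) in the 4 labelled RNAs, with Rbpj-cKO in red and control in dark blue, squares for the male and circles for the female array. Each panel spans the same range on the log2 scale, and a grey line joins the RNAs of 1 array. For every gene the Rbpj-cKO point is above the control point of its own array, by as little as 0.04 for Upk2 on the female array.

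Upk1a encodes the tetraspanin that pairs with uroplakin 2. Its log2 level was 17.62 in male and 17.67 in female Rbpj-cKO RNA, against 17.14 in male and 17.44 in female control RNA. With loess, both Rbpj-cKO levels were above both control levels, as for all 5 genes and for 14.9% of all features. With median centring the female ratio of each uroplakin gene was negative, so there the Rbpj-cKO levels were not all above the control levels. The log2 ratio was 0.47 in the male pair and 0.23 in the female pair (mean 0.35, SD 0.17, n = 2; 95% interval -0.08 to 0.78; limma adjusted p = 1.00). In the ranking of all features by mean ratio, 97.0% lay below Upk1a, 96.3% below Upk2, 90.5% below Upk3a, 87.7% below Upk3b and 86.8% below Upk1b.

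Upk2 encodes the small single-pass partner of uroplakin 1A and had the least even values of the 5. Its log2 level was 17.09 in male and 16.98 in female Rbpj-cKO RNA, against 16.47 in male and 16.94 in female control RNA. The male control was the low value and the female pair was nearly level. The groups did not overlap with loess, as for 14.9% of all features. The log2 ratio was 0.62 in the male pair and 0.04 in the female pair (mean 0.33, SD 0.41, n = 2; 95% interval -0.13 to 0.79; limma adjusted p = 1.00). The mean of Upk2 thus rests almost wholly on the male array. Its SD was larger than that of 81.8% of all features, while none of the other 4 genes exceeded more than 47.0% of features in SD.

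Upk1b encodes the tetraspanin that pairs with uroplakin 3A or 3B, and its probe is 1 of 399 that were printed 10 times on the array. Its log2 level was 16.94 in male and 17.05 in female Rbpj-cKO RNA, against 16.85 in male and 16.76 in female control RNA. The groups did not overlap with loess, as for 14.9% of all features, and the female pair differed more. The log2 ratio was 0.09 in the male pair and 0.28 in the female pair (mean 0.18, SD 0.14, n = 2; 95% interval -0.24 to 0.61; limma adjusted p = 1.00).

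The replicate spots of Upk1b show how finely a single array reads such a bright probe. On the male array the 10 ratios ran from 0.06 to 0.13 with a median of 0.07 (SD 0.03). On the female array they ran from 0.23 to 0.37 with a median of 0.27 (SD 0.05). All 10 spots were above 0 on each array, and the spots of the male and the female array did not overlap. The spots share 1 RNA pair per array and are technical repeats, so they were averaged and counted once. Among the 399 probes with 10 spots, the median SD of the spot ratios was 0.05 in the male pair and 0.15 in the female pair.

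**Figure D2:**
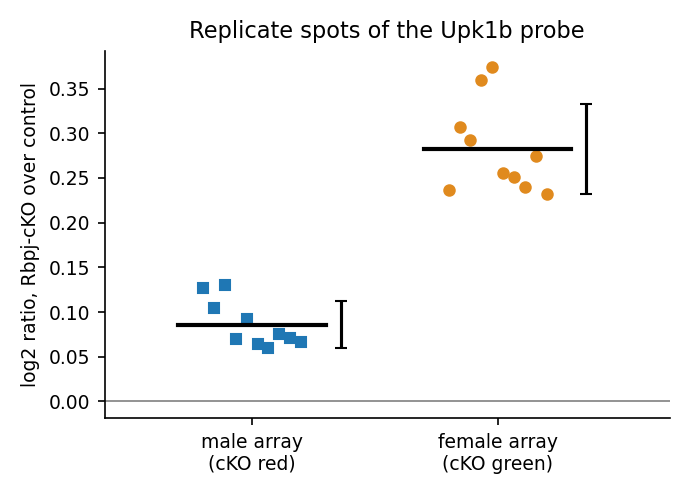
Log2 ratio of Rbpj-cKO over control (vertical axis) at each of the 10 replicate spots of the Upk1b probe on the male and the female array, with the mean (thick bar) and the SD over spots (error bar). The male spots lie between 0.06 and 0.13 and the female spots between 0.23 and 0.37, and all are above 0.

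Upk3a encodes the single-pass partner of uroplakin 1B, whose loss in mice leaves the urothelium without normal plaques. Its log2 level was 17.69 in male and 17.89 in female Rbpj-cKO RNA, against 17.60 in male and 17.54 in female control RNA. The groups did not overlap with loess, as for 14.9% of all features, and like Upk1b the female pair differed more. The log2 ratio was 0.09 in the male pair and 0.35 in the female pair (mean 0.22, SD 0.18, n = 2; 95% interval -0.21 to 0.65; limma adjusted p = 1.00).

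Upk3b encodes the other partner of uroplakin 1B. Its log2 level was 14.30 in male and 14.25 in female Rbpj-cKO RNA, against 14.03 in male and 14.13 in female control RNA. The groups did not overlap with loess, as for 14.9% of all features. The gap between the female Rbpj-cKO level and the female control level was small. The log2 ratio was 0.27 in the male pair and 0.11 in the female pair (mean 0.19, SD 0.11, n = 2; 95% interval -0.23 to 0.62; limma adjusted p = 1.00).

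**Figure D3:**
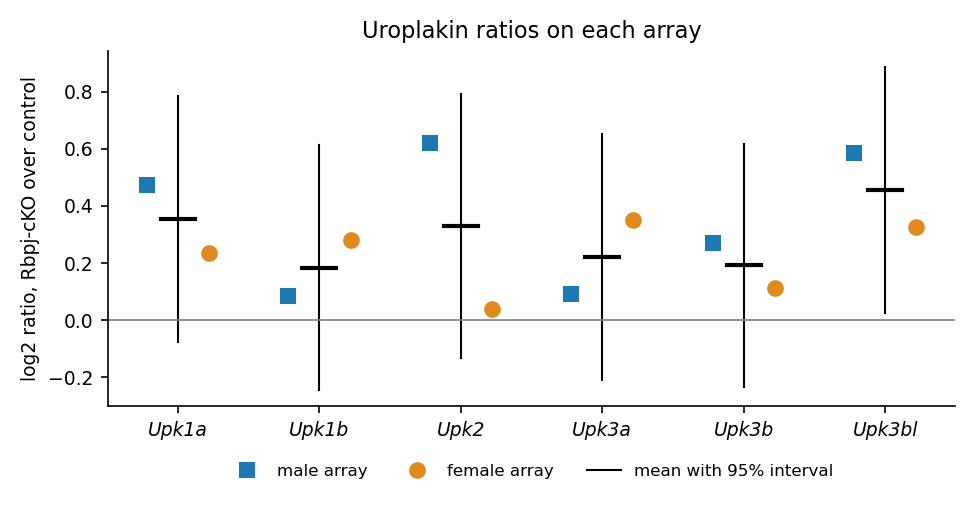
Log2 ratio of Rbpj-cKO over control (vertical axis) on the male array (blue squares) and the female array (orange circles) for the 5 uroplakin genes and the uroplakin 3B-like gene Upk3bl, with the mean of the arrays and its 95% interval from limma (black). All points are above 0, and the intervals of the 5 uroplakin genes include 0.

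The scanner software's own error of a single ratio was of about the same size as these values. For the 5 genes it lay between 0.20 and 0.21 on the log2 scale on each array. In the software's processed signals Upk2 had 0.58 and Upk1a 0.44 on the male array, which exceeds that error, while Upk3a had 0.00 and Upk1b 0.04. On the female array Upk1a had 0.31, Upk1b 0.28 and Upk3a 0.26, which also exceed that error, while Upk2 had 0.11. Upk3b had 0.34 in the male pair, above that error, and -0.01 in the female pair. In these signals 4 of the 5 genes were thus higher on both arrays.

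Which array gave the larger ratio differed between the genes and did not follow the partner groups throughout. Upk1a and Upk2, whose products pair with each other, had the larger ratio on the male array, by 0.24 and 0.58. Upk1b and Upk3a, whose products also pair, had the larger ratio on the female array, with male minus female differences of -0.20 and -0.26. Upk3b had 0.16, the opposite sign to its partner Upk1b. As a description over the 10 pairs of these genes, Upk1b and Upk3a had the closest pair of ratios, 0.07 apart. They stayed the closest pair under the 5 alternatives that change these ratios, of which the series table nearly repeats Agilent's processed signals. Upk1a and Upk2 were 0.24 apart, as were Upk1a and Upk3b, and Upk1b and Upk3b were 0.25 apart. With median centring all 5 genes had the larger ratio on the male array. With 1 array per sex and dye orientation, no test of these differences was possible.

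Whether both arrays gave the same direction depended on how they were scaled, while the mean ratios stayed above 0. With median centring in place of loess, all 5 genes were above 0 on the male array, from 0.56 for Upk3b to 1.22 for Upk2. All 5 were below 0 on the female array in that setting, from -0.07 for Upk3b to -0.56 for Upk2, so none was higher on both arrays. Their mean ratios in that setting were 0.19 to 0.34, against 0.18 to 0.35 with loess. With the processed signals the mean of Upk3a was 0.13, against 0.22 with loess. The median of all features moved by under 0.1 in each setting and was 0.04 with median centring. With a loess span of 0.1, chosen after the data were seen, all 5 were higher on both arrays, and Upk3a was at 0.00 on the male array.

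**Figure D4:**
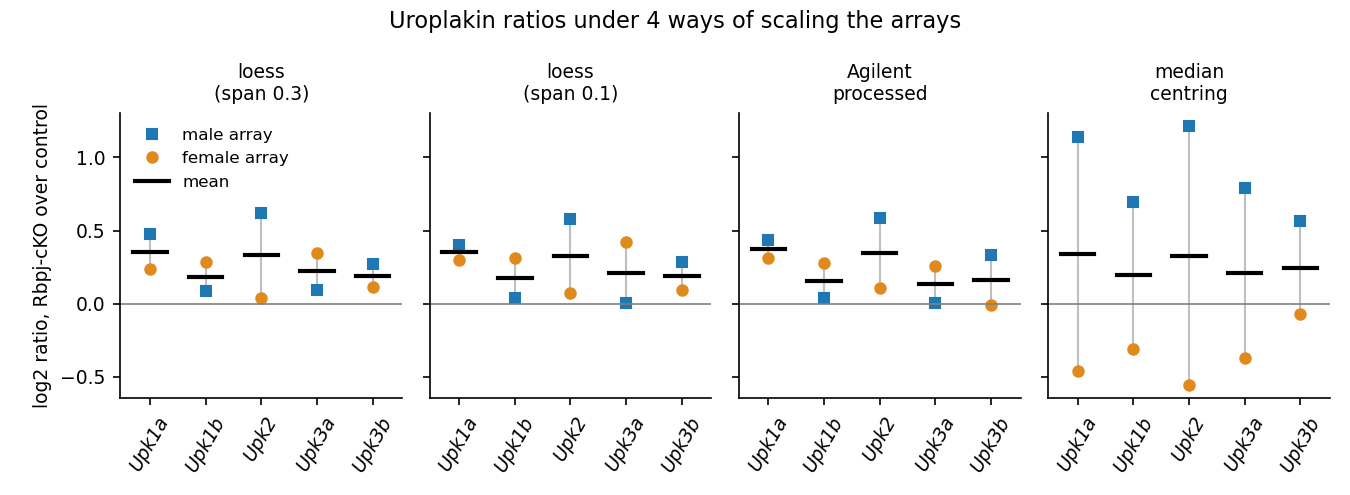
Log2 ratio of Rbpj-cKO over control (vertical axis) of the 5 uroplakin genes under 4 ways of scaling, with the male array as blue squares, the female array as orange circles and the mean as a black bar. The means stay between 0.13 and 0.37 in all panels, while under median centring the male points lie at 0.56 or more and the female points at -0.07 or less.

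The uroplakin probes were bright for this array. The mean intensity of Upk3a was above that of 99.6% of all features, that of Upk1a above 99.0%, that of Upk1b above 96.7%, that of Upk2 above 96.6% and that of Upk3b above 79.6%. With loess, 6.53% of the other 199 features among the 200 brightest were higher and 11.6% lower on both arrays. Their median ratio was 0.13 in the male pair and -0.12 in the female pair. The part of the intensity range in the uroplakin ratios, or in their dependence on scaling, was not tested.

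The uroplakin 3B-like gene Upk3bl, a neighbour of Upk3b on chromosome 5 whose product resembles uroplakin 3B, had a higher mean ratio than each of the 5 uroplakin genes, though not the highest ratio on each array. Its first probe had 0.59 in the male pair and 0.33 in the female pair (mean 0.46, limma adjusted p = 1.00), and its second probe, which overlaps the first by all but 5 bases, had 0.61 and 0.35. It did not pass the test over all features.

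Other genes of the urothelium had ratios of a like size. This size was not particular to urothelium, as the ureteric mesenchyme markers given below had a median of 0.18. No gene of the lists below passed the test, where 0.129% of all features did. Beside the list counts that follow, 21.7% of all features were higher and 19.7% lower on both arrays with loess. Of 9 urothelial keratins, 6 were higher and 0 lower on both arrays, with a median of 0.25 (0.30 in the male pair, 0.11 in the female pair). The count of keratins higher on both arrays was 4 with Agilent's processed signals and 3 with median centring. Krt5, a keratin of basal cells, had 0.56 in the male pair and 0.53 in the female pair, and Krt15, also basal, had 0.30 and 0.23. Krt18, a keratin of simple epithelia, had 0.46 and 0.14 and its partner Krt8 had 0.09 and 0.11. Krt20, which marks the superficial cells that carry the plaques, had 0.47 and -0.15, Krt19 had 0.01 and 0.61, Krt13 had 0.28 and -0.14, and Krt7 had a mean of -0.09.

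The urothelial transcription factors, of which several are known to act on urothelial differentiation, had a median of 0.21 over both arrays. It was 0.08 in the male pair and 0.42 in the female pair, and 5 of 11 were higher and 0 lower on both arrays. The count higher on both was 7 with Agilent's processed signals and 6 with median centring. Gata3 had 0.39 in the male pair and 0.49 in the female pair, Grhl3, needed for superficial cells in mice, had 0.20 and 0.43, and Elf3 had 0.31 and 0.20. Pparg, the nuclear receptor that drives urothelial differentiation, had 0.13 and 0.17, and its partner Rxra had 0.08 and -0.13. Foxa1 had 0.07 and 0.28, Klf5 had -0.01 and 0.67, and Trp63, the factor of basal and intermediate cells, had -0.41 and 0.43.

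Genes that carry uroplakins to or from the cell surface had ratios in both directions. Of 9 sorting and vesicle traffic genes, Upk3bl among them, 2 (Upk3bl itself and Myo5b) were higher and 2 lower on both arrays, and the median was -0.05 (-0.07 in the male pair, 0.18 in the female pair), which turned to 0.01 with median centring or when the probes of a gene were averaged. Snx31, a sorting nexin that binds uroplakins, had -0.60 in the male pair and 0.42 in the female pair, and Rab27b, a GTPase of the uroplakin vesicles, had -0.52 and 0.35. Mal, a membrane protein that aids their fusion at the surface, had 0.48 and -0.05, the motor gene Myo5b had 0.33 and 0.14, and Sytl2 had -0.18 and 0.54. Rab11a and Rab8a, GTPases of the same route, had means of -0.17 and -0.10. Of 12 epithelial adhesion and tight junction genes, 4 were higher and 0 lower on both arrays, with a median of 0.15 (0.08 in the male pair, 0.26 in the female pair). The count of these higher on both was 7 with Agilent's processed signals and 6 with median centring. Tjp3 had 0.38 and 0.45, the protease inhibitor gene Spint1 had -0.02 and 0.80, and the claudin genes Cldn4 and Cldn8 had means of -0.05 and -0.09.

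The ratios of mesothelial markers differed more between the arrays than those of the uroplakin genes did. The 10 markers other than Upk3b and Upk1b had medians of 1.03 in the male pair and -0.21 in the female pair, and 3 were higher on both arrays. Msln, the mesothelin gene, had 0.43 and 0.27, Rspo1 had 2.17 and -0.37, Nkain4 had a mean of 0.69, Muc16 had 1.18 and -0.21, Wt1 had 0.50 and -0.21, Aldh1a2 had 0.02 and 0.13, Bnc1 had 1.14 and -0.99 and Lrrn4 had 1.01 and -1.63. Their summed linear intensity was 67536 in male and 54765 in female Rbpj-cKO RNA, against 45612 in male and 53251 in female control RNA. All 10 passed the filter on dim probes. Upk3b had 0.27 and 0.11 with loess, while its female ratio was -0.01 with Agilent's processed signals and -0.07 with median centring. The part of mesothelium in the levels of Upk3b and Upk1b was not tested.

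**Figure D5:**
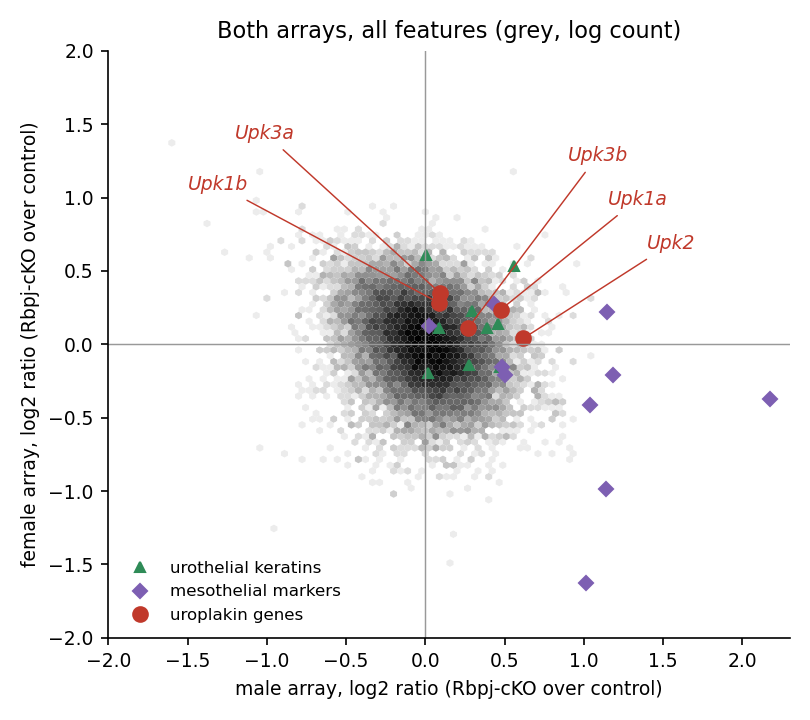
Log2 ratio of Rbpj-cKO over control on the male array (horizontal axis) and the female array (vertical axis) for all features (grey, darker for more features, log count; 32 of 20989 have a ratio beyond 2 in size on an axis), with the uroplakin genes as red circles, urothelial keratins as green triangles and mesothelial markers as violet diamonds. The uroplakin genes lie above 0 on both axes, near the keratins, and 7 of the 10 mesothelial markers lie below 0 on the female array.

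Markers of other tissues in the dissection are given for comparison with the uroplakins. Of 7 smooth muscle markers, 1 was higher and 6 were lower on both arrays, with a median of -0.35 (-0.56 in the male pair, -0.17 in the female pair). Among all features, 21.7% were higher and 19.7% lower on both arrays. With median centring, 0 of these markers were higher and 4 lower on both, and with Agilent's processed signals 0 and 6. Des had -0.63 and -0.64, Actg2 had a mean of -0.58, Tagln of -0.13, and Smtn, the only one above 0, of 0.16. Their summed linear intensity was 642996 and 640223 in Rbpj-cKO RNA, against 801515 and 727160 in control RNA, for male and female. That of the 5 uroplakin probes was 697106 and 735693 in Rbpj-cKO RNA, against 568271 and 622923 in control RNA. Such sums, here and for the mesothelial markers, are led by the brightest probes. They can be compared between channels for 1 list, not between lists, and do not measure amounts of tissue. The part of a changed share of muscle RNA in the uroplakin ratios was not tested.

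Of 12 kidney tubule and glomerulus markers, 7 were measured, with a median of -0.02. The others did not pass the filter on dim probes. Six2 had 1.48 and 0.86, Cdh16 had 0.21 and 1.29, Hsd11b2 had a mean of -0.27, and Cited1 had -0.70 and -0.49. Ureteric mesenchyme markers (6 genes) had a median of 0.18, with Bmp4 at 0.56 and Tshz3 at -0.32. With loess, 4 of the 6 were higher and 1 lower on both arrays, where 21.7% and 19.7% of all features were. With median centring, 5 were higher and 1 lower on both. Blood and endothelial markers (7 measured of 8) had 0.01, with Slc4a1 at -0.63 and 1.49 and Cd68 at a mean of -0.26. Nerve and glial markers (6 genes) had -0.04, with Prph at 0.36 and Nefm at -0.63. The medians of the kidney and nerve lists are close to 0 and turned sign with the scaling, to 0.02 for kidney with Agilent's processed signals and to 0.01 for nerve with median centring.

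The promoters of the uroplakin genes were read in the RefSeq table on GRCm38.p6, which held 3 of the 5 genes. They are shown because the mean ratios of these genes had the same sign and because the targeted gene encodes a DNA-binding protein. This cre acts in the mesenchyme, next to the cells that make uroplakins, as given above. Whether RBPJ acts on these promoters was not tested. Each stretch is the 250 bases before the gene's start, at chr7:30612735-30612984 (minus strand) for Upk1a, chr15:85016891-85017140 (plus strand) for Upk3a and chr5:136038246-136038495 (plus strand) for Upk3b. The core letters searched for RBPJ were TGGGAA. For nuclear receptors, the family of PPARG and RXRA, the hexamer was AGGTCA. For the factors of the Gata family it was AGATAA. For the box bound by SP1 and related proteins the letters were GGGCGG. Capitals mark matches on either strand, and none overlapped another:
Upk1a: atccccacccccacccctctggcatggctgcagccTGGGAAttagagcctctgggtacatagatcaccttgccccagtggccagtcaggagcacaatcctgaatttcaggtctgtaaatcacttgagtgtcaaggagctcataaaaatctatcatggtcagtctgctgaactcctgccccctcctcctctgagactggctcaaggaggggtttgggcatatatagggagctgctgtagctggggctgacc
Upk3a: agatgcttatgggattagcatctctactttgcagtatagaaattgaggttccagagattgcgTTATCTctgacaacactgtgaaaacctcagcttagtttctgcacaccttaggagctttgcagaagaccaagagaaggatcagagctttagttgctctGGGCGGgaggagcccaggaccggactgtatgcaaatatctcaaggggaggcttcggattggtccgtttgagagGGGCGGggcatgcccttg
Upk3b: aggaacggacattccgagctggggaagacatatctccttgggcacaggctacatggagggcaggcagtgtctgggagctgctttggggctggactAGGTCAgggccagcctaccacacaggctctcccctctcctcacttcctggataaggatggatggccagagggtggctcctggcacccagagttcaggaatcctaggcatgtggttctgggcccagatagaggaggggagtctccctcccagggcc
The Upk1a stretch held TGGGAA once, from -215 to -210 relative to the start, and 21.6% of the 32851 promoters in the table hold it within the same 250 bases. The Upk3a stretch held AGATAA on the reverse strand from -188 to -183, a match found in 9.99% of promoters, and GGGCGG from -91 to -86 and from -18 to -13, found in 32.7%. The Upk3b stretch held AGGTCA from -155 to -150, found in 14.0% of promoters. These are matches of letters and not sites.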

How the data were processed

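Per the submitters' processing notes, the arrays were read with Agilent Feature Extraction 10.7.3.1. Per the file headers, the raw mean signal and local background are each an intensity, unnormalized, the processed signal is an intensity already background-subtracted, detrended and dye-normalized, and the log ratio with its error is log10 of red over green. In the deposited series table each probe has a score that behaves as a signed fold, used as an alternative only, and how it was made is not stated there. Its Pearson correlation with the processed ratios was 0.988 for the male and 0.990 for the female array, with a median of 1 in each column. As a log2 ratio it lay within 0.001 of the processed ratio for 98.8% (male) and 99.0% (female) of 25904 kept probes with 1 spot. It thus nearly repeats the processed signals and is not a separate alternative to them.

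Background correction used normexp in limma (offset 50), then loess on each array (weight 0 for control spots). Outlier spots were left out (200 male, 274 female) and spots of a probe averaged. A probe was kept if well above background in both Rbpj-cKO RNAs or in both control RNAs. Of 39429 probes, 26412 were named through RefSeq (GRCm38.p6) and 13017 kept the name in the files. Each gene was represented by its brightest probe, which left 20989 features. All 5 uroplakin probes passed in all 4 channels. Levels are after Aquantile. Ratios were tested two-sided with eBayes after lmFit in limma 3.58.1 under R 4.3.3, adjusted over all features by Benjamini-Hochberg, with 1 residual and 10.3 prior degrees of freedom, so the p-values measure the spread between these arrays, which may be technical. Only the limma fit was run on simulated ratios, so background correction, loess and filtering were not checked in that way.

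The uroplakin genes and all gene lists were chosen with earlier results of these data known. Besides the uroplakin genes, Rbpj and Tbx18, the genes named from each list are those with the highest and lowest mean ratios, up to 4 a list, or up to 8 for keratins, transcription factors, traffic genes and mesothelial markers.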

Additional observations from a re-analysis of the deposited data

How the results depend on the processing

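The mean ratios of the 5 uroplakin genes kept their direction under the 5 alternatives with both arrays that change them, at 0.13 to 0.37, and none passed the test. The ratios of single arrays did not all keep theirs. Of these 5, the series value table nearly repeats Agilent's processed signals. The other 4 alternatives leave the uroplakin ratios as they are by construction. The uroplakin median was 0.16 with Agilent's processed signals and with the series value table, where 4 of the 5 genes were higher on both arrays. It was 0.25 with median centring, where none was. Without replicate 1 it was 0.23 and without replicate 2 it was 0.27, each a value from 1 array with no test. The counts of features over the whole array depended on the processing: against 27 features past the test, 0 passed with Agilent's processed signals, median centring, the series value table or no filter on dim probes (limma; 837, 226, 819 and 979 at an unadjusted p under 0.05), 10 with the mean of probes or a loess span of 0.1, and 41 when the prior followed intensity. Against 42 probes past the test in the fit over all 26224 probes, 0 passed with processed signals, median centring or no filter (1019, 268 and 1189 at an unadjusted p under 0.05), 14 with a loess span of 0.1 and 74 when the prior followed intensity. The loess span, and the intensity prior for probes, were chosen after seeing the data. The cause was not tested. The ratio within each array already pairs its RNAs, and no further block was fitted. With 2 arrays, the upper limits of the 95% intervals of the uroplakin ratios lie at 0.61 to 0.79, so mean ratios up to there are not excluded. The lower limits lie at -0.24 to -0.08, so no change or a small decrease is not excluded either.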

Other observations

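The features with a gene symbol most like the uroplakins over the 2 ratios, by Euclidean distance from the uroplakin median pair, were H2ac10, Ica1l, Olfr1382, H2ac20 and Vsig10, all within 0.01. Of 16627 candidates above background in all 4 channels, 321 (1.93%) lay within 0.1, so the likeness singles out no gene. H2ac10 had 0.27 in the male pair and 0.23 in the female pair, and Vsig10 had 0.26 and 0.23.

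In the fit over all 26224 probes, the brighter Rbpj probe had an adjusted p of 0.0236 by limma, against 0.0760 in the fit over features, and 0.0127 over the same features when the prior followed intensity. Over the alternatives to the fit over features its adjusted p ran from 0.0127 to 1.00. The adjusted p of each of the 5 uroplakin probes was 1.00 in both fits.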
